A study of Mus musculus with 2 samples.

Results

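The immediate early and early response genes described here are 34 genes whose mRNA is known to rise within minutes to hours of a stimulus to a cell. They were listed by symbol as known genes of this class, with earlier results of these data known, and all 34 were among the 27998 genes of both count matrices and the 15025 genes of the deposited table of cluster means. The cells came from the neurohypophysis (NH), the neural lobe of the pituitary, of 3-month-old male C57BL/6 mice, dissected with some cells of the adjacent intermediate lobe (IL). Tissue of 5 mice was pooled for each of 2 samples, pool 1 and pool 2, digested with Liberase TM and papain, and captured with the 10x Genomics Chromium version 2 kit, which tags every captured mRNA with a molecular barcode so that molecules, not reads, are counted (unique molecular identifiers, UMIs). The mice were untreated, the pools were replicates of the same condition, and cells not put through dissociation were not analysed here, so that a level that the tissue held and a level reached during dissociation cannot be told apart.

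Immediate early genes are transcribed without the need for new protein, when kinases that act on waiting factors such as the serum response factor, CREB and NF-kB switch on. Many of their products are transcription factors (the *Fos* and *Jun* subunits of AP-1, Egr and Klf zinc finger proteins, Nr4a nuclear receptors), and others close the response by dephosphorylating kinases, holding NF-kB in the cytoplasm or marking short-lived mRNA for decay. In nervous and endocrine tissue they are used as marks of recent cell activity, and in dissociated tissue they are also known to rise while cells are digested.

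After the study's limits on cells, pool 1 held 273 and pool 2 255 cells, with a median of 2050.0 and 2330.0 UMIs and no barcode shared by the pools. The authors' 7 types were pituicytes (the glia of the NH, 196 cells), IL cells (148), macrophage/microglia (95), T-cell like (42), epithelial-like (23), vascular endothelia (13) and VLMC (vascular and leptomeningeal cells, 11), and each type held its own marker genes at a higher summed level than every other type did. Markers of other cells were also present in all 7 types. In CPM (UMIs scaled to a common total, 1% of UMIs being 10000 CPM), given for pool 1 and then pool 2, oligodendrocyte markers reached 18137 and 17088 in the VLMC, above the 15664 and 7286 of the VLMC markers themselves, anterior lobe endocrine markers 35202 and 2013 CPM in the epithelial-like cells and 149 and 9361 CPM in IL cells, and IL markers 4142 and 3239 CPM in pituicytes. Vascular endothelia held pericyte markers at 1234 and 721 CPM and anterior lobe endocrine markers at 2292 and 240.2 CPM. Macrophage/microglia held IL markers at 1286 and 880 CPM, and T-cell like cells held them at 510 and 722 CPM. The part of these cells in the members' levels was not tested. The authors chose the genes for clustering by their variability. Among the 900 most variable genes as recomputed here were 27 of the 34 members. The types and the members' levels can thus not be taken as independent.

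The 34 members took 0.389% ± 0.0730 (SD, n = 2 pools) of all UMIs in pituicytes, 1.40% ± 0.000480 in IL cells and 1.63% ± 0.585 in macrophage/microglia. Their summed level in pool 1 and pool 2 was 4409 and 3377 CPM in pituicytes, 13983 and 13989.7 in IL cells and 12192 and 20461 in macrophage/microglia, so that pituicytes did not overlap with either. T-cell like cells held 4661 and 6532 CPM and VLMC 1295 and 2981, while epithelial-like cells held 10457 and 17749 and vascular endothelia 14895 and 32191. *Fos*, the partner of *Jun* proteins in AP-1, was the most abundant member, with 3024 of the members' UMIs or 20.3% of them. Without it the summed level was 3751 and 2773 CPM in pituicytes, 10531 and 10692 in IL cells and 10218 and 16977 in macrophage/microglia, in the same order of pituicytes below both. The median mitochondrial share was 14.9% in pituicytes, 9.90% in IL cells and 4.28% in macrophage/microglia. With mitochondrial UMIs left out of the total, the members' share was 0.526 and 0.385% in pituicytes, 1.56 and 1.55% in IL cells and 1.29 and 2.19% in macrophage/microglia.

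**Figure D1:**
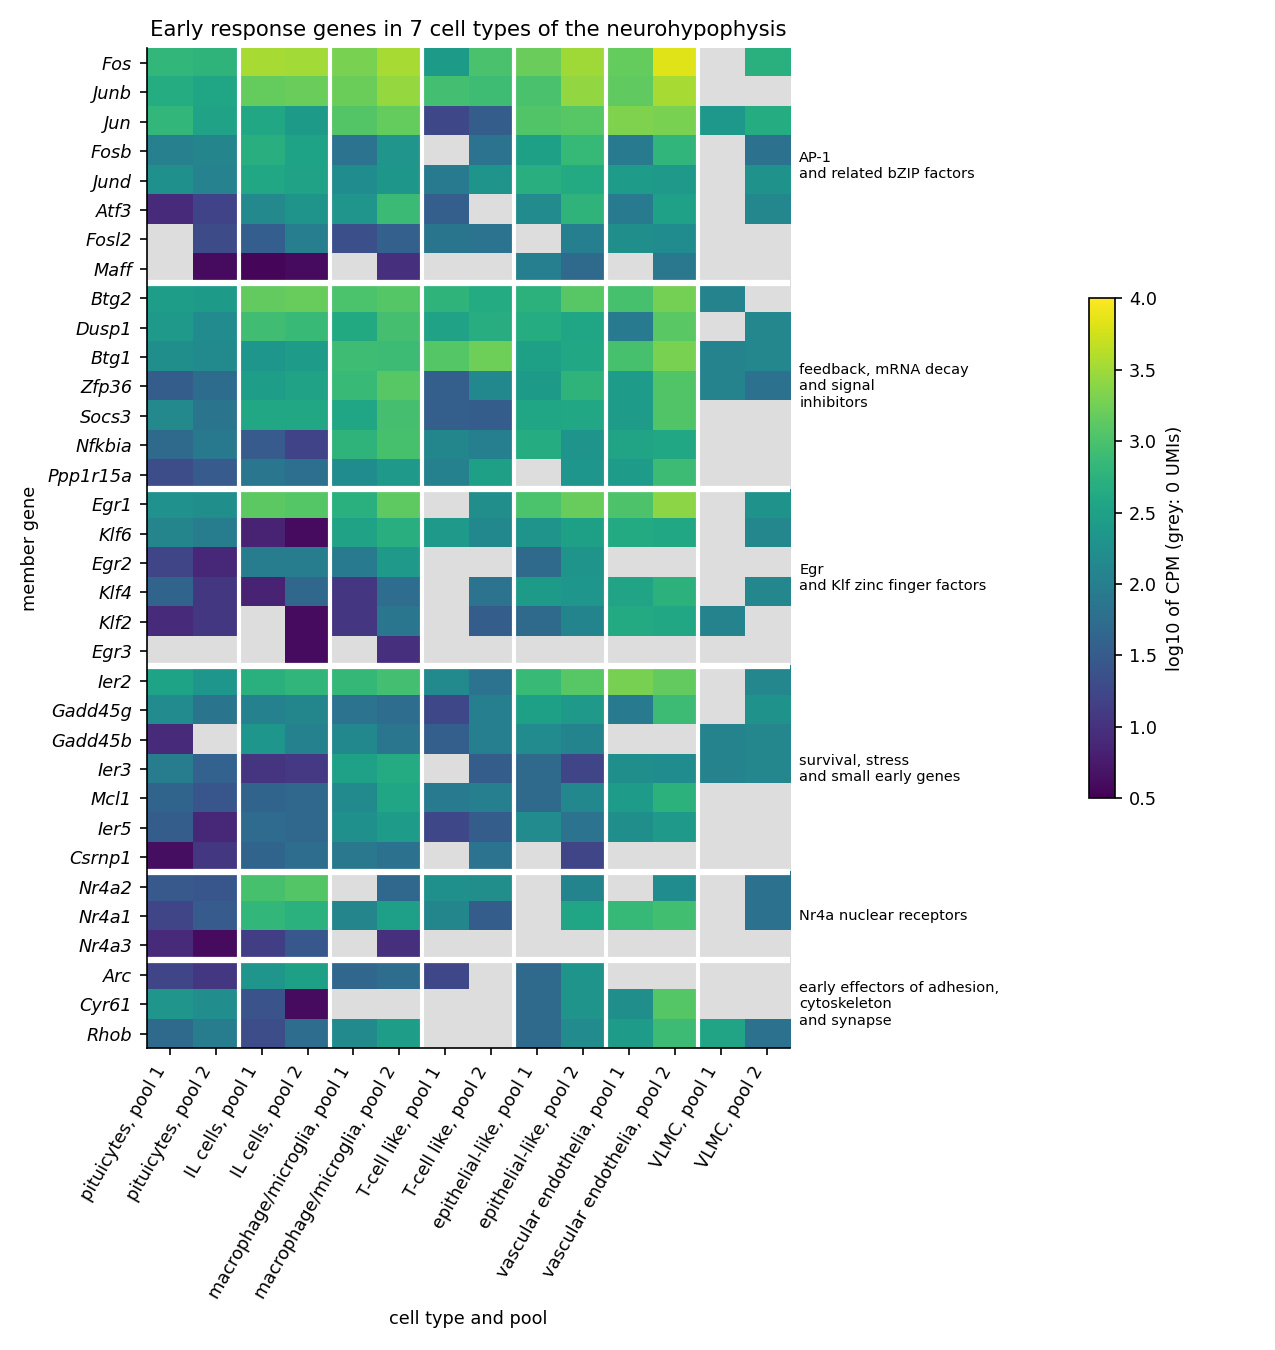
Level of each of the 34 members (rows, grouped by role and ordered by UMIs) in each cell type and pool (columns), as the log10 of CPM, with grey for 0 UMIs. In most rows the pituicyte columns are darker (lower) than the macrophage/microglia columns, and the Cyr61 row is grey for macrophage/microglia and T-cell like cells in both pools.

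The direct contrasts asked how pituicytes, the resident glia, differ from the other large types. Counts were summed per pool and type, and 30 of the 34 members passed the filter on low counts. *Csrnp1*, *Egr3*, *Maff* and *Nr4a3* did not, with 47, 2, 10 and 15 UMIs in all cells. In edgeR's quasi-likelihood test over 4510 genes, a call needed an adjusted p no higher than 0.05 together with a change of 1 or more in natural log (ln) units. Against macrophage/microglia, 22 of the 30 were lower in pituicytes, beside 13.8% of all genes tested, and only *Cyr61* was higher, beside 13.4%. The median ln fold change was -1.58 over the 30 and 0.12 over all genes. Against IL cells, 15 of the 30 were lower in pituicytes, beside 6.72% of all genes, and 3 (*Klf6*, *Cyr61* and *Ier3*) were higher, beside 10.0%. Here the median was -1.18 over the 30 and 0.0045 over all genes. These contrasts share the pituicyte sums, and the p-values measure the spread between the 2 pools only. All 41 called values kept their direction in either pool alone, but 9 of the members' values moved by over 1.5 times there, and those named below are given with that value. With the pool as a block, 21 members were lower than in macrophage/microglia, *Arc* no longer being called, and 16 lower than in IL cells, with *Ppp1r15a* added.

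**Figure D2:**
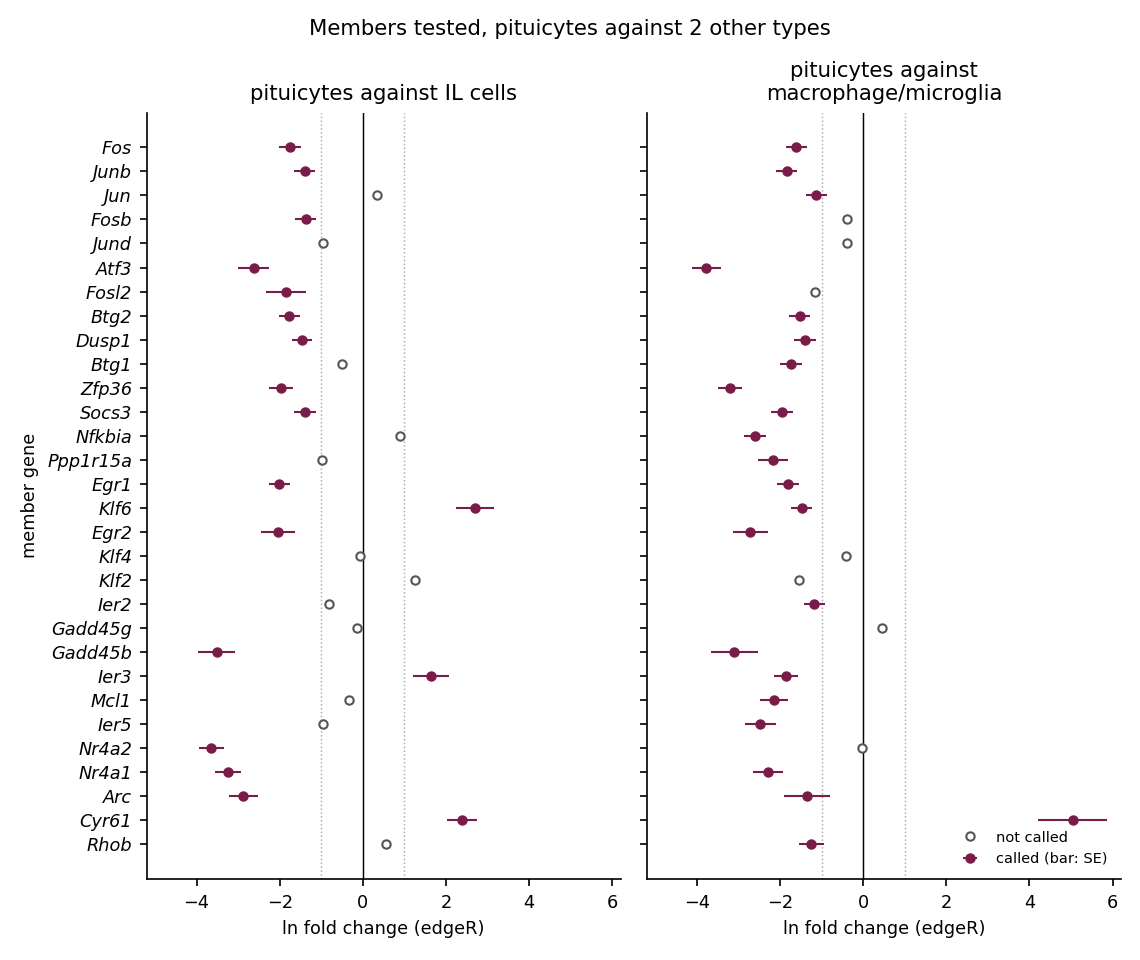
Fold change on the ln scale (edgeR) of the 30 members tested, for pituicytes against IL cells (left) and against macrophage/microglia (right), with negative values for genes lower in pituicytes. Filled points were called and carry their SE, open points were not, and dotted lines mark a fold change of 1 on the ln scale in each direction. Klf6, Ier3 and Cyr61 lie to the right in the left panel, and of these only Cyr61 does in the right panel.

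Of the members that differed in the direct contrasts, *Fos*, *Dusp1* and *Zfp36* were lower in pituicytes than in both IL cells and macrophage/microglia. *Nr4a2* was called lower than in IL cells only, *Nfkbia* lower than in macrophage/microglia only, and *Cyr61* higher than in both. Promoter bases are shown for these members. They are the bases just before the RefSeq start of each gene on its own strand (GRCm38.p6), *Fos* (chr12:85473770-85473889, + strand), *Nr4a2* (chr2:57124004-57124133, - strand), *Dusp1* (chr17:26508473-26508622, - strand), *Nfkbia* (chr12:55492648-55492767, - strand), *Zfp36* (chr7:28379229-28379348, - strand) and *Cyr61* (chr3:145649986-145650105, - strand). Capitals mark the CRE core TGACG or its complement in *Fos*, *Nr4a2* and *Cyr61*, the full CRE TGACGTCA in *Dusp1*, an NF-kB motif in *Nfkbia* and a CArG box, the letters bound by the serum response factor, in *Zfp36*.
Fos: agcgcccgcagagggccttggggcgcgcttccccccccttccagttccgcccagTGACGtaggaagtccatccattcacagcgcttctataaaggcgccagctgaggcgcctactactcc
Nr4a2: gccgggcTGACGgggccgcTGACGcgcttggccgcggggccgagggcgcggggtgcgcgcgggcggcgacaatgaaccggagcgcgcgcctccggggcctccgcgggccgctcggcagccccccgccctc
Dusp1: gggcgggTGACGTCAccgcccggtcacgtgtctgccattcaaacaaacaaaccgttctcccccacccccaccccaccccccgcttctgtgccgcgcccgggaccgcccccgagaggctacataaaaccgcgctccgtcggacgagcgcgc
Nfkbia: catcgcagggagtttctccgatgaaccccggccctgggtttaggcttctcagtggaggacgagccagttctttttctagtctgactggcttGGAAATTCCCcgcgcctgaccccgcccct
Zfp36: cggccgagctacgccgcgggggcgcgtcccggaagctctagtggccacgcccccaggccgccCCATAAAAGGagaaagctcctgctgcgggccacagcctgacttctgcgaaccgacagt
Cyr61: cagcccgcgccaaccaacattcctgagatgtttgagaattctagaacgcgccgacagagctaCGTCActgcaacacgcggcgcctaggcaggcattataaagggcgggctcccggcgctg

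The 250 bases before the start were searched on both strands in 27025 genes, 30 of them members. *Egr1*, *Egr3*, *Ier2* and *Arc* had no window and were not searched, nor were bases further upstream of any gene. The CRE, the site of CREB-family proteins, was in 4 of these 30 members (*Btg2*, *Dusp1*, *Maff* and *Ppp1r15a*), or 13.3%, and in 1.77% of all genes. Its core, which the full CRE contains on both strands, was in 17 of the 30 (56.7%) and in 19.8% of all genes. *Fos*, *Fosb*, *Junb*, *Atf3*, *Cyr61* and all 3 Nr4a genes were among the 17. An NF-kB motif was in 6 (against 4.46% of all genes), namely *Fos*, *Fosb*, *Fosl2*, *Ier3*, *Maff* and *Nfkbia*, and a CArG box in *Egr2* and *Zfp36* (6.67% against 1.62%). The AP-1 motif TGANTCA was in *Csrnp1* only (3.33% against 7.82%). The members whose bases are printed above were picked by hand, and each holds a motif. *Jun*, *Socs3*, *Klf6*, *Gadd45b*, *Mcl1*, *Ier5* and *Rhob*, also called in a direct contrast, held none of these motifs in the bases searched. The core was added to the search after the windows were seen, base composition was not matched, and a match is a description of letters and not of binding.

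The AP-1 and related bZIP factors, which bind DNA as pairs, held 2062 and 1566 CPM in pituicytes, 6385 and 6115 in IL cells and 5222 and 9045 in macrophage/microglia over 8 genes. *Fos* stood at 658 and 604 CPM in pituicytes, 3452 and 3298 in IL cells and 1974 and 3484 in macrophage/microglia, and pituicytes did not overlap with either. The fold change was -1.75 ± 0.26 (SE) against IL cells (edgeR adjusted p = 1.7e-10) and -1.61 ± 0.26 against macrophage/microglia (adjusted p = 4.4e-09). *Junb*, a *Jun*-family subunit, stood at 458 and 359 CPM in pituicytes, 1486 and 1583 in IL cells, 1635 and 2826 in macrophage/microglia and 892 and 825 in T-cell like cells, and VLMC had none. *Jun*, unlike *Fos*, was not called between pituicytes and IL cells (ln fold change 0.35, edgeR adjusted p = 0.38). It stood at 649 and 327 CPM in pituicytes and 384 and 256 in IL cells, with overlap of the pools. It was higher in macrophage/microglia, at 1150.4 and 1483 CPM, but this difference was -0.67 in pool 1 alone and -1.73 in pool 2 alone, against -1.12 with both. T-cell like cells, in contrast, held *Jun* at only 18.2 and 34.4 CPM.

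*Atf3*, a bZIP repressor induced by stress, was the member furthest below macrophage/microglia in pituicytes. It stood at 8.49 and 15.8 CPM in pituicytes, 139 and 204 in IL cells and 214 and 769 in macrophage/microglia, a difference of -3.78 ± 0.35 from the last (edgeR adjusted p = 8.3e-25). *Fosb*, a *Fos* relative of brain and gland cells, was lower in pituicytes (106 and 122 CPM) than in IL cells (494 and 341, ln fold change -1.37) and was not called against macrophage/microglia (67.7 and 213). *Jund*, which is made at a steadier level than its relatives in most cells, was called in neither contrast, at 182 and 114 CPM in pituicytes, 391 and 329 in IL cells and 158 and 222 in macrophage/microglia. *Fosl2* was rare, at 0 and 19.7 CPM in pituicytes and 35.6 and 100.2 in IL cells. Its called fold change of -1.86 against IL cells was -3.49 in pool 1 alone, where pituicytes had no UMI. *Maff*, a small partner of other bZIP factors, had 10 UMIs in all and was not tested, at 0 and 3.95 CPM in pituicytes and 104 and 50.8 in epithelial-like cells.

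Among the zinc finger factors, Egr and Klf members were split between types, and the 6 genes summed to 378 and 304 CPM in pituicytes, 1429 and 1350.5 in IL cells and 959 and 2261 in macrophage/microglia. *Egr1*, induced by growth factors and nerve activity, stood at 187 and 178 CPM in pituicytes, 1323 and 1194 in IL cells and 519 and 1372 in macrophage/microglia, and T-cell like cells had none in pool 1 and 172 CPM in pool 2. Pituicytes were lower than IL cells (ln fold change -2.01 ± 0.26, edgeR adjusted p = 3.2e-13) and than macrophage/microglia (-1.80 ± 0.26, adjusted p = 1.7e-10; -1.12 in pool 1 alone). *Egr2* was at 17 and 7.89 CPM in pituicytes, 92.4 and 96.2 in IL cells and 90.2 and 250.2 in macrophage/microglia, and was called lower in pituicytes in both contrasts (-2.03 and -2.72, the latter -1.71 in pool 1 alone). *Klf6*, a factor of injury and growth responses, was nearly missing from IL cells, at 7.11 and 4.01 CPM, against 123 and 94.7 in pituicytes and 327 and 500.4 in macrophage/microglia. Pituicytes exceeded IL cells by 2.71 ± 0.45 (adjusted p = 4.4e-08) and were below macrophage/microglia (-1.48 ± 0.26). *Klf2*, known in endothelium as a gene of shear flow, stood at 441 and 400.4 CPM in vascular endothelia and at no more than 118 CPM in any other type or pool. *Klf4*, of the same family, reached 353 and 561 CPM there and 259 and 220.0 in epithelial-like cells. Over all kept cells *Klf2* had 35 UMIs and *Klf4* 67. The 13 vascular endothelia held 11346 and 12488 UMIs of all genes, so the levels of *Klf2* and *Klf4* there rest on few UMIs. *Egr3* had 2 UMIs in all, 1 in IL cells and 1 in macrophage/microglia.

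The Nr4a nuclear receptors, which act without a known hormone, were abundant in IL cells, with 1628 and 1739 CPM over 3 genes against 55.2 and 63.1 in pituicytes and 124 and 352 in macrophage/microglia. *Nr4a2* stood at 953 and 1166 CPM in IL cells and 29.7 and 27.6 in pituicytes, and at 0 and 46.3 in macrophage/microglia, where its 5 UMIs were in a single cell. The fold change of pituicytes against IL cells was -3.65 ± 0.30 (SE, edgeR adjusted p = 4.6e-31), and against macrophage/microglia it was -0.02 (adjusted p = 0.99). T-cell like cells held *Nr4a2* at 182 and 172 CPM, between these types. *Nr4a1* stood at 661 and 545 CPM in IL cells, 124 and 297 in macrophage/microglia, 705 and 881 in vascular endothelia and 17 and 31.6 in pituicytes. It was lower in pituicytes in both contrasts, with -3.24 ± 0.31 against IL cells and -2.28 ± 0.36 against macrophage/microglia. At the share estimated below for macrophage/microglia and T-cell like cells, free RNA would give 3.32 and 2.83 CPM of *Nr4a2*. For *Nr4a1* it would give 4.45 and 3.79 CPM. *Nr4a3* had 15 UMIs in all, of which IL cells held the most, at 14.2 and 28.1 CPM.

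Members that end a response (feedback, mRNA decay and signal inhibitors, 7 genes) summed to 951 and 797 CPM in pituicytes, 3274 and 3374 in IL cells and 4094 and 6283 in macrophage/microglia. *Nfkbia*, which keeps NF-kB out of the nucleus, stood at 598 and 973 CPM in macrophage/microglia, 50.9 and 82.8 in pituicytes and 32 and 16 in IL cells. Pituicytes were below macrophage/microglia (-2.60 ± 0.27, edgeR adjusted p = 2.3e-20) and were not called against IL cells (0.90, adjusted p = 0.072). *Zfp36*, which binds AU-rich mRNA and speeds its decay, was at 711 and 1223 CPM in macrophage/microglia, 277 and 333 in IL cells and 33.9 and 55.2 in pituicytes, called lower in pituicytes in both contrasts (-3.20 ± 0.29 and -1.97 ± 0.29). *Socs3*, an inhibitor of cytokine receptors, was at 140.0 and 71 CPM in pituicytes, 395 and 397 in IL cells and 361 and 927 in macrophage/microglia. Its difference from macrophage/microglia, -1.96, was -1.04 in pool 1 alone.

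*Dusp1*, a phosphatase of MAP kinases, was at 238 and 154 CPM in pituicytes, 843 and 745 in IL cells and 429 and 936 in macrophage/microglia, with fold changes of -1.47 ± 0.24 and -1.40 ± 0.25 (-0.69 in pool 1 alone for the second). *Btg2*, which slows the cell cycle and recruits an mRNA deadenylase, was at 293 and 252 CPM in pituicytes, 1433 and 1551 in IL cells and 1015 and 1177 in macrophage/microglia, and was called lower in pituicytes in both contrasts. Its relative *Btg1*, known for high levels in resting lymphocytes, was instead highest among the 4 largest types in T-cell like cells, at 1183 and 1685 CPM. Pituicytes held *Btg1* at 174 and 149.9 CPM, beside IL cells (220.4 and 273, not called, -0.49) and below macrophage/microglia (823 and 797, -1.74 ± 0.26). *Ppp1r15a*, which restarts protein synthesis after stress, stood at 21.2 and 31.6 CPM in pituicytes and 158 and 250.2 in macrophage/microglia (-2.16 ± 0.36), and at 74.7 and 60.1 in IL cells, where the adjusted p was 0.041 and the fold change of -0.99 stayed just under the limit.

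The survival, stress and small early genes summed to 683 and 375 CPM in pituicytes, 1009.7 and 1046 in IL cells and 1601 and 2178 in macrophage/microglia over 7 genes. *Ier2* was the most abundant of them in these types, at 344 and 217 CPM in pituicytes, 533 and 645 in IL cells and 677 and 908 in macrophage/microglia. It was called against macrophage/microglia (-1.18 ± 0.25, -0.78 in pool 1 alone) and, at -0.81, not against IL cells. *Ier3*, which modulates cell survival, was high in macrophage/microglia (316 and 445 CPM), lower in pituicytes (97.6 and 39.5) and lowest in IL cells (10.7 and 12). Both steps were called, with -1.86 ± 0.28 against macrophage/microglia and 1.64 ± 0.44 against IL cells (1.04 in pool 2 alone). *Gadd45b*, a stress sensor upstream of stress kinases, had 2 UMIs in pituicytes (8.49 and 0 CPM), against 217 and 108 CPM in IL cells and 135 and 74.1 in macrophage/microglia. *Gadd45g*, its relative, was called in neither contrast, at 153 and 71 CPM in pituicytes and 110.2 and 128 in IL cells. *Mcl1*, which blocks apoptosis at the mitochondrion, was at 42.4 and 27.6, 42.7 and 48.1 and 147 and 371 CPM in pituicytes, IL cells and macrophage/microglia (-2.15 ± 0.33 against the last, -1.32 in pool 1 alone), and *Ier5* at 33.9 and 7.89, 53.3 and 48.1 and 180.4 and 259 CPM (-2.47 ± 0.37). *Csrnp1*, not tested, was at 4.24 and 11.8 CPM in pituicytes, 42.7 and 56.1 in IL cells and 78.9 and 64.9 in macrophage/microglia.

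The effectors of adhesion, cytoskeleton and synapse went 3 ways. *Cyr61*, a secreted matrix protein that binds integrins, was at 212 and 166 CPM in pituicytes, 24.9 and 4.01 in IL cells and 0 in both pools in macrophage/microglia as well as T-cell like cells. In macrophage/microglia 3 counts over the type would be 15.3 CPM. It was the only member called higher in pituicytes in both contrasts, by 2.39 ± 0.35 against IL cells (edgeR adjusted p = 3.7e-10). The fitted 5.04 against macrophage/microglia depends on edgeR's prior count. Vascular endothelia held still more in pool 2, with 176 and 1201 CPM. A UMI of *Cyr61* was in 23% (17.3 to 29.5%) of pituicytes and in 4.73% (1.92 to 9.50%) of IL cells (exact 95% intervals, which cover counting error only), and in 11.7 and 1.35% after thinning to 1000 UMIs. *Arc*, a synaptic protein of active neurons, was at 209.8 and 305 CPM in IL cells, 45.1 and 55.6 in macrophage/microglia and 17 and 11.8 in pituicytes, lower in pituicytes in both contrasts, with -2.88 ± 0.35 and -1.35 ± 0.55 (edgeR adjusted p = 0.046 for the second). *Rhob*, a short-lived GTPase of endosomes and actin, was at 50.9 and 94.7, 21.3 and 56.1 and 147 and 287 CPM in pituicytes, IL cells and macrophage/microglia, with 0 in T-cell like cells and a called difference of -1.24 ± 0.30 against macrophage/microglia.

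Each type was also contrasted with the mean of the other 6. Macrophage/microglia had 20 of the 30 members higher and 0 lower (beside 16.5 and 1.18% of all genes), IL cells 12 higher and 3 lower (16.9 and 2.06%), and pituicytes 1 higher and 4 lower (16.8 and 0.953%). The median ln fold change of the 30 was 1.31 in macrophage/microglia, 0.72 in IL cells and -0.51 in pituicytes, where that of all genes was 0.29, 0.38 and 0.41. For the 0 lower in macrophage/microglia, 1 of the 30 had an unadjusted p under 0.05 in edgeR with a negative fold change, and DESeq2 called 0 as well. The 12 higher in IL cells were led by *Arc* (3.18 ± 0.37), *Nr4a2* (3.15 ± 0.21; 5.39 in pool 1 alone) and *Egr2* (2.40 ± 0.56), and the 3 lower were *Klf6*, *Klf2* and *Ier3*. In macrophage/microglia the largest changes were in *Egr2* (3.20 ± 0.52), *Nfkbia* (2.94 ± 0.25) and *Ier3* (2.54 ± 0.27). Pituicytes had *Cyr61* higher, and *Atf3*, *Nr4a1*, *Zfp36* and *Nr4a2* lower, the last with a fold change of -1.10 that was 1.25 in pool 1 alone. With the pool as a block 3 members were lower in pituicytes, beside 0.820% of all genes, since *Nr4a2* then had an edgeR adjusted p just over the limit (0.050). Without a pool, *Atf3* and *Nr4a1* also moved, from -2.29 to -1.51 and from -1.96 to -0.89 in pool 1 alone.

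The mean of the other types includes 3 types of at most 23 cells, in which many genes have 0 counts. When only the 4 largest types were fitted, 31 members were tested, and pituicytes had 15 of them lower beside 3.17% of all genes, and 1 higher, beside 15.8%. Among the 15 were *Fos*, *Junb*, *Btg1*, *Btg2*, *Dusp1* and *Gadd45b*. In that fit macrophage/microglia had 19 higher (beside 11.8%), IL cells 11 higher (beside 16.9%) and T-cell like cells 9 lower (beside 4.12%).

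T-cell like cells had 1 of the 30 members higher and 5 lower with all types fitted, beside 9.47 and 2.75% of all genes. The higher member was *Btg1* (1.51 ± 0.20, edgeR adjusted p = 7.6e-12). *Jun* (-3.24 ± 0.47), *Egr1* (-2.15 ± 0.41), *Fosb*, *Ier2* and *Rhob* were lower, of which *Egr1* was -5.07, *Fosb* -3.87 and *Ier2* -0.34 in pool 1 alone, against -2.15, -1.91 and -1.31 with both pools. In pool 2 alone *Fosb* was -1.23 and *Ier2* -2.02. *Junb* was among the members that these cells kept, so that the *Jun* family was uneven, with *Junb* at 892 and 825 and *Jun* at 18.2 and 34.4 CPM.

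Among the types of few cells, vascular endothelia had 11 members higher (beside 3.41%) and 0 lower (beside 0.554%), epithelial-like cells 10 higher (beside 8.0%) and 0 lower (beside 0.155%), and VLMC 0 higher (beside 2.88%) and 9 lower (beside 1.55%). For these 3 counts of 0, edgeR gave an unadjusted p under 0.05 to 1, 0 and 0 members in that direction, and DESeq2 called 0 in each. In vascular endothelia the largest was *Cyr61* (3.69 ± 0.57; 2.36 in pool 1 alone), followed by *Klf2* (2.46 ± 0.57), and *Jun* was at 2115 and 2002 CPM. Epithelial-like cells had *Egr2* (2.69 ± 0.68; 1.28 in pool 1 alone), *Cyr61* (2.43; 1.11 in pool 1 alone) and *Arc* (2.31; 0.80 in pool 1 alone) furthest up. VLMC had no UMI of *Junb*, *Socs3*, *Nfkbia*, *Mcl1* or *Ppp1r15a*, where 3 counts over the type would be 127 CPM, and held *Jun* at 236 and 464 CPM.

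Within a type, the members were uneven from cell to cell. After each cell was thinned to 1000 UMIs, a median pituicyte held 1 member UMI and 35.7% of pituicytes held none, while a median IL cell and a median macrophage or microglial cell held 12 each. Of IL cells 6.76% held none, and of macrophage/microglia 1.05%. At the other end, 25 pituicytes (12.8%, exact 95% interval 8.43 to 18.3%) had at least 10 member UMIs of the 1000, that is 15.7% of pituicytes in pool 1 and 9.09% in pool 2. This share was 54.7% for both IL cells and macrophage/microglia, and T-cell like cells had 28.6%. The 20 pituicytes with most member UMIs carried 56.8% of the member UMIs of their type, against 25.4% in the 15 highest IL cells and 31.3% in the 10 highest macrophage/microglia. None of the 25 pituicytes was marked as a doublet, their median of 2256 UMIs was near that of the other pituicytes (2021), and macrophage/microglia markers were at 29.9 CPM in them and 130.3 CPM in the rest. *Pomc*, the hormone precursor of IL cells, took 0.979% of their UMIs and 0.258% in the rest. The limit of 10 UMIs cuts a continuous range, with 16 pituicytes within 2 UMIs of it.

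**Figure D3:**
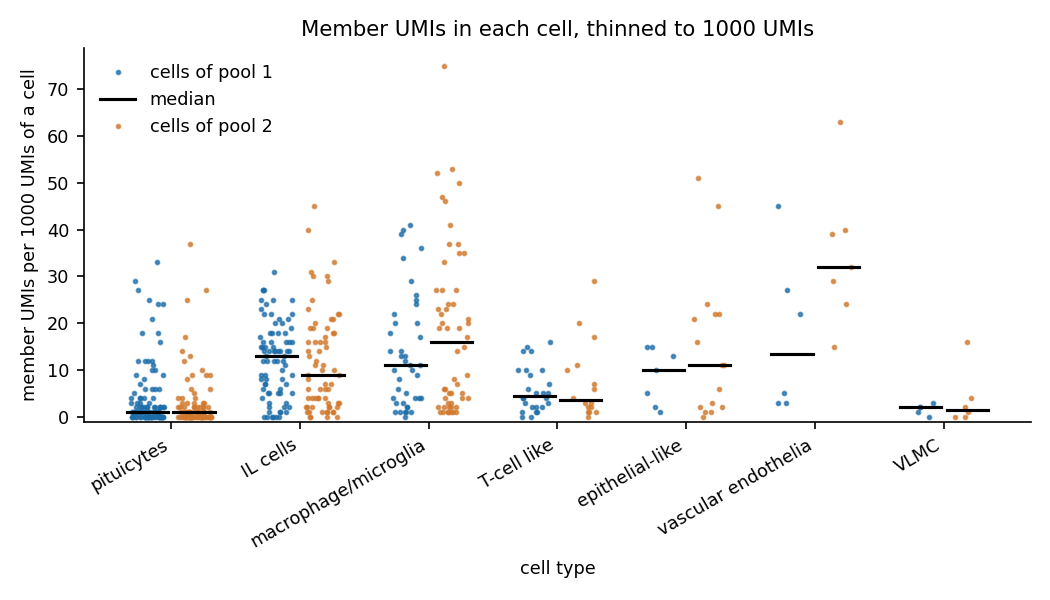
Member UMIs in each cell after thinning to 1000 UMIs, by cell type and pool. Each point is a cell and the black line is the median of the pool, at 1 in both pools of pituicytes and at 13 and 9 in IL cells.

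A UMI of *Fos* was in 30.6% (24.2 to 37.6%) of pituicytes and 79.7% (72.3 to 85.9%) of IL cells (exact 95% intervals), and for macrophage/microglia this was 62.1% (51.6 to 71.9%) and for the T-cell like type 19% (8.60 to 34.1%). After thinning these shares were 25%, 73.6%, 54.7% and 19%. Free RNA, at the share of macrophage/microglia and T-cell like cells estimated below, would give 17.8 and 15.2 CPM of *Fos*. This is below the *Fos* level of both of these types in either pool. In thinned pituicytes of pool 1, 12 of the 14 cells with *Egr1* also held *Fos*, which was in 31 of the 108 cells, while in pool 2 *Fos* was in 4 of the 5 cells with *Egr1* and in 18 of the 88 cells. Spearman correlations of *Fos* with *Junb* across thinned cells were between 0.50 and 0.68 in the 3 largest types, taken by pool (6 sets of 41 to 108 cells), those of *Fos* with *Jun* between 0.20 and 0.60, and those of *Fos* with *Egr1* between 0.31 and 0.76. In T-cell like cells of pool 1, *Fos* with *Jun* was at -0.08 (26 cells). There *Fos* was in 4 cells and *Jun* was rare, so this value cannot be read as a lack of correlation. Pool 2 gave no value for this pair, and *Fos* with *Junb* was at 0.20 in pool 1 and 0.77 in pool 2. The cells of a set share a library, and their sparse counts share its depth. The number of different members found in a thinned cell went with the mitochondrial share at -0.41 (Spearman) in pituicytes of pool 2. In the other 5 sets this was between -0.20 and 0.00.

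The authors split 3 of the types into clusters. In the macrophage/microglia, cluster a (69 cells) held 14629 and 22898 CPM of the members and cluster b (26 cells) 9189 and 11911, and of the 23 members with at least 20 UMIs in these clusters, 13 were higher in a with no overlap of the pools, beside 24.9% of all such genes, and 0 were lower, beside 18.1%. *Ier3* separated them at 552 and 536 against 25.2 and 125 CPM, *Jun* at 1818 and 1703 against 327 and 710.5 and *Junb* at 2268 and 3310.2 against 856 and 1128. *Fos* did not, at 1879.7 and 3953 against 2089 and 1839. In IL cells, which the authors' table names neural progenitor a and b, cluster a (94 cells) held 11619 and 11015 CPM and cluster b (54 cells) 16281 and 18312, and of 25 such members 16 were lower in a with no overlap, beside 19.1% of all such genes, and 1 was higher, beside 20%. *Fos* was at 2654 and 2733 against 4228 and 4119 CPM, *Dusp1* at 664 and 534 against 1017 and 1052 and *Jund* at 238 and 183 against 539.9 and 541. The median mitochondrial share was 9.16 and 8.63% in a and 13.4 and 14.1% in b. Of the 3 pituicyte clusters, a held 4196 and 3934 CPM, b 4345 and 4375 and c 4581 and 1418, the last value from 16 cells. Since the members may have helped to form the clusters, as most were among the variable genes recomputed here, these are descriptions without a test.

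**Figure D4:**
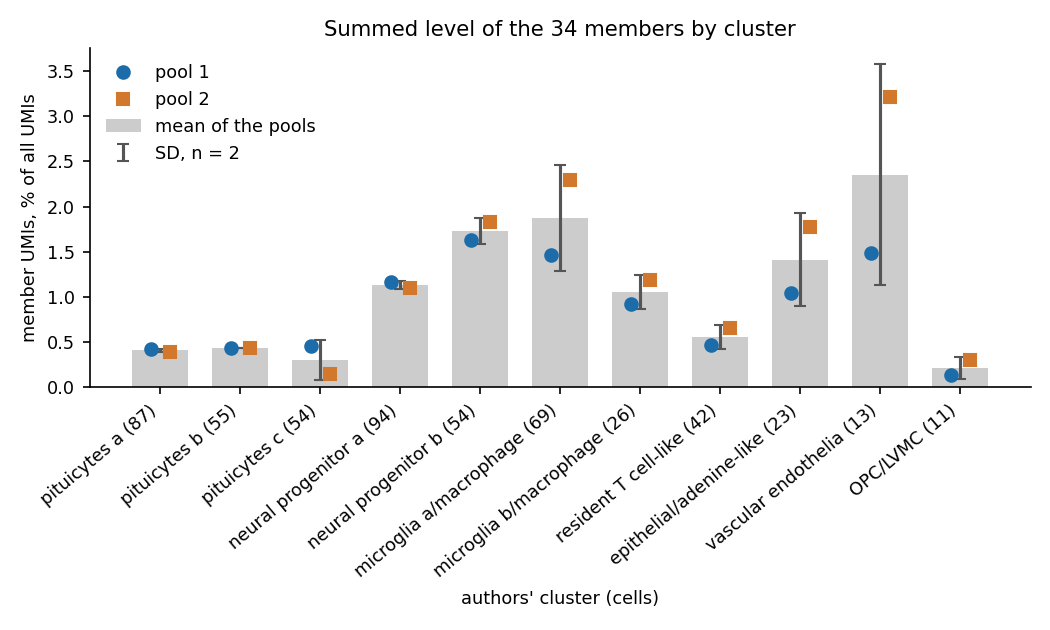
UMIs of all 34 members as a percentage of all UMIs in each of the authors' 11 clusters (cells in parentheses), with points for the pools, grey bars for their mean and whiskers for the SD of 2 pools. All 3 pituicyte clusters lie below 0.5%, and microglia a lies above microglia b, and neural progenitor b above a, in both pools.

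The pools were compared within the large types. Of the 23 members with at least 20 UMIs in macrophage/microglia, 21 were higher in pool 2, beside 50.1% of all 1294 such genes, with a median log2 ratio of 0.78 and the largest, 1.84, in *Atf3*. In IL cells 15 of 25 were higher in pool 2 (median 0.09), beside 56.5% of all such genes, and in pituicytes 4 of 18 (median -0.35), beside 60.1%, with *Ier3* lowest at -1.31. Cluster a made up 27 of 41 macrophage/microglia in pool 1 and 42 of 54 in pool 2, and within each cluster the summed members were higher in pool 2. The type's median was 1777 UMIs in pool 1 and 1699 in pool 2, and its median mitochondrial share 4.11 and 4.69%. With 1 sum per pool, the difference between pools was not tested.

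Barcodes outside the limits on cells held fewer member UMIs. As a share of UMIs that were not mitochondrial, members took 1.08 and 1.26% in the kept cells of pool 1 and pool 2, 0.654 and 0.507% in the 56 and 27 barcodes left out for a mitochondrial share of 25% or more alone, and 0.424 and 0.413% in the 1133 and 1168 barcodes of the 1500 with 1000 UMIs or fewer. Free RNA was read from 157608 barcodes of pool 1 with 1 to 50 UMIs, and members took 0.365% there. Pool 2 was deposited without such barcodes, so the profile of pool 1 was used for both. The share of free RNA was estimated from *Pomc* in macrophage/microglia and T-cell like cells, at 6.10 and 5.19% of their UMIs. At that share, free RNA would give 110.0 and 93.6 CPM of the 34 members, below the summed level given above for both of these types in either pool. For *Atf3* it would give 1.71 and 1.45 CPM in macrophage/microglia and T-cell like cells. *Pomc* took 1.57% of free RNA. In pituicytes it took 0.979% of UMIs in the 25 cells with at least 10 member UMIs and 0.258% in the rest. The share of free RNA in pituicytes, VLMC and the other types was not estimated. The CPM given for free RNA thus hold for macrophage/microglia and T-cell like cells only.

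**Figure D5:**
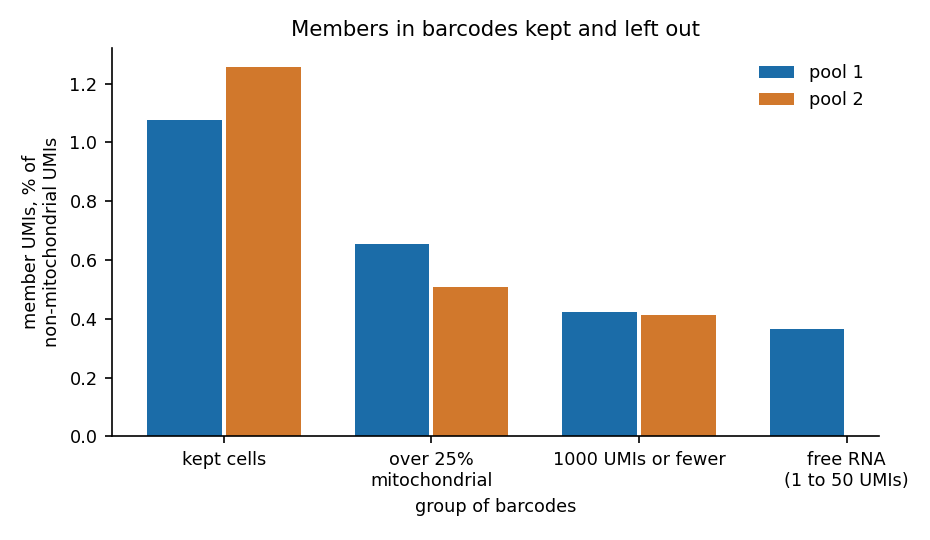
Member UMIs as a percentage of non-mitochondrial UMIs (bars, 1 value per pool) in kept cells, in barcodes over the mitochondrial limit alone, in barcodes of 1000 UMIs or fewer, and in free RNA of pool 1. Kept cells, all types together, are highest in both pools, at 1.08 and 1.26%. The barcodes left out were not assigned to types.

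The types and members could not be taken as independent, so the cells were also clustered after all 34 members were removed from the genes used. Each of the resulting 7 clusters was named by the authors' type most frequent among its cells, which favours agreement. So named, 492 of the 528 cells kept the authors' type name. Among them were 192 of 196 pituicytes, 142 of 148 IL cells and 93 of 95 macrophage/microglia. The direct contrasts below were thus over nearly the same cells and are not an independent check. All 13 vascular endothelia and 7 of the 11 VLMC fell in the cluster named epithelial-like, and the other 4 VLMC among IL cells (3) and pituicytes (1). Against macrophage/microglia, 23 of 31 members tested were then lower in pituicytes (beside 14.3% of all genes) and 1 higher (beside 15.5%), and against IL cells 17 were lower (beside 8.43%) and 3 higher (beside 10.1%). No cluster was named vascular endothelia or VLMC, so the mean of the other types was over fewer types than in the main fit. Against that mean, pituicytes had 17 members lower (beside 4.19% of all genes). Macrophage/microglia had 14 higher (beside 14.1%) and IL cells 9 higher (beside 14.5%). The part of the missing types in these counts was not tested.

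Other genes of the same pathways were read from 2 further lists. Of 20 genes of the signal path to early genes (kinases, SRF and its partners, CREB and NF-kB subunits), 10 were tested. Pituicytes had 0 higher and 0 lower, beside 16.8 and 0.953% of all genes. IL cells also had 0 and 0, beside 16.9 and 2.06%. For these counts edgeR gave an unadjusted p under 0.05 to 0 of the 10 genes in pituicytes and to 3, all higher, in IL cells. Macrophage/microglia had 2 of the 10 higher (beside 16.5% of all genes), *Mapk14* (1.65 ± 0.62, 22.6 and 92.7 CPM) and *Nfkb1* (1.60 ± 0.49, 102 and 111 CPM). *Mapk14* had 12 UMIs in this type, and in pool 1 epithelial-like cells (104 CPM) and vascular endothelia (88.1 CPM) were above it, each from few UMIs. *Nfkb1* was at 88.1 and 160 CPM in vascular endothelia, from 3 UMIs. T-cell like cells had 1 higher (beside 9.47%), *Creb1* (1.83 ± 0.65, 109 and 103 CPM). These shares, 20 and 10% of the 10 genes, were near those of genes in general. Of 42 other early response genes, 27 were tested. IL cells had 5 of the 27 (18.5%) higher, beside 16.9% of all genes, a share near that of genes in general. Among the 5 were *Egr4* (171 and 152 CPM) and *Npas4* (128 and 84.2 CPM), 2 factors of nerve cell activity that had 0 UMIs in pituicytes and macrophage/microglia. Epithelial-like cells held *Npas4* at a similar level, 104 and 84.6 CPM from 7 UMIs. In IL cells 2 were lower (beside 2.06%), *Sgk1* (-3.85 ± 0.86, edgeR adjusted p = 1.0e-04) being the larger.

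Macrophage/microglia had 10 of these 27 higher (beside 16.5%) and 2 lower (beside 1.18%), *Spry2* (-4.32) and *Plk2* (-3.41), which had 0 UMIs in this type. Pituicytes had 2 higher (beside 16.8%), *Dusp6*, a phosphatase of ERK (1.73 ± 0.37, 144 and 122 CPM), and *Tob1* (1.53 ± 0.43, 127 and 103 CPM). *Tob1* was at higher levels in IL cells (185 and 240 CPM) and in epithelial-like cells (311 and 152 CPM). In pituicytes 2 were lower (beside 0.953%), of which *Id2* (-4.25 ± 0.51) was at 4.24 and 0 CPM there against 451 and 593 in macrophage/microglia. T-cell like cells had 4 higher (beside 9.47%), led by *Tnfaip3* (2.47 ± 0.58) and *Id2* (2.08 ± 0.25), and 1 lower (beside 2.75%), *Klf3* (-4.29, 0 UMIs). Further genes in these counts, named after their values were seen, were *Errfi1*, *Tob1* and *Cebpb* (higher) and *Zfp36l1* (lower) in IL cells, *Nfkbiz* (lower) in pituicytes, and *Zfp36l2* and *Bhlhe40* (higher) in T-cell like cells.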

How the data were processed

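Each deposited matrix holds raw UMI counts per gene and barcode, which the authors made with Cell Ranger (versions 1.2.1, 2.0.0 and 2.1 are in the submitters' processing notes, with STAR 2.5.1b and Seurat 2.3). A deposited table holds the mean signal per cluster, UMI counts scaled to 10000 per cell. Of the 1500 top barcodes per pool, cells were kept with a mitochondrial share under 25%, between 1000 and 10000 UMIs, and between 400 and 5000 genes. The cells of each type were found by non-negative least squares from the deposited cluster means. Scrublet (scanpy 1.11.5) marked 3 of 528 cells as doublets, which were kept.

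UMIs were summed per type and pool (14 sums, 8491 to 281271 UMIs) and tested with edgeR 4.0.16 (R 4.3.3), TMM scaling and the quasi-likelihood test, over 4510 genes (minimum count 5, total 15). A call needed a Benjamini-Hochberg p no higher than 0.05 and a change of 1 or more in ln units. The SE is the ln fold change over the root of the F statistic. The 2 pools were of different mice, and each had its own dissociation, capture and library. The p-values thus measure the spread between these pools, with all of these steps together. All types of a pool share mice and a library, which pairs them (correlations of deviations -0.02 to 0.10, median 0.02, over 21 pairs of types). Alternatives were DESeq2 1.42.0, library size scaling, no filter, the pool as a block, a mitochondrial share under 10%, thinning to 1000 UMIs, no doublets, clustering without the members (Seurat 5.3.0) and the 4 largest types. Scripts were tested on simulated data. Exact intervals (95%, Clopper-Pearson, scipy 1.17.1) cover counting error only. The members and lists were chosen with earlier results of these data known. All members are accounted for, and in each of the other 2 lists up to 3 called genes per large type, those furthest from 0 in either direction, were named, and further genes of counts of 5 or fewer after their values were seen, except that 1 result is not reported here. Figures were drawn with matplotlib 3.10.9 (Python 3.11.15).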

Additional observations from a re-analysis of the deposited data

Results flagged for a closer look

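Members were also found in barcodes that the comparisons did not use, above the limit that a count of 0 allows. In barcodes over the mitochondrial limit alone they took 0.424% of all UMIs in pool 1 and 0.324% in pool 2. In barcodes with 1000 UMIs or fewer, among the 1500 of each pool, they took 0.197 and 0.193%. In the free RNA of pool 1 they took 0.180%. The kept cells, all types together, stood at 0.956 and 1.13%.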

How the results depend on the processing

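All 41 values called in the direct contrasts kept their direction under every alternative that could test them, but calls were lost. DESeq2 kept 32 of 41, the limit of 10% on the mitochondrial share 32 of 39 (with 6 values moved by over 1.5 times), thinning 27 of 30, library size scaling 38 of 41, and no filter, the replicate block, clustering without the members and no doublets 40 of 41 each. Lower in pituicytes than in IL cells were 11 members under DESeq2 (beside 1.93% of all genes in that fit) and 13 of 29 under the mitochondrial limit (4.87%), and lower than in macrophage/microglia 19 (7.29%) and 16 (13.7%). Of the 76 values called in a type against the others, DESeq2 kept 45 and library size scaling 66. The limit of 10% kept 47 of 73, thinning 43 of 60 and clustering without the members 40 of 56. In pool 1 alone 30 of the 76 moved by over 1.5 times, and in pool 2 alone 5. In the counts below, each share is that of all genes in the same fit. DESeq2 called 0 higher in pituicytes (4.77%), 8 higher in IL cells (4.43%), 11 higher in macrophage/microglia (7.05%), 3 higher in epithelial-like cells (4.39%), 3 lower in VLMC (0.177%) and 1 higher in pituicytes than in IL cells (3.19%). Library size scaling, which shifted the median of all genes by -0.51 (macrophage/microglia) to 0.72 (vascular endothelia) on the log2 scale, called 13 higher (11.4%) and 1 lower (2.68%) in macrophage/microglia, 8 lower in T-cell like cells (4.26%) and 19 higher in vascular endothelia (5.25%). With a mitochondrial share under 10%, 0 were lower in pituicytes (0.296%), 1 lower in IL cells (1.74%), 12 higher in macrophage/microglia (17.2%) and 2 higher in epithelial-like cells (5.08%). Thinning left 0 higher in pituicytes (14.7%), also 0 against macrophage/microglia (16.9%) and 1 against IL cells (9.12%), 1 lower in IL cells (2.28%), 11 higher in macrophage/microglia (18.1%), 2 lower in T-cell like cells (5.18%), 5 higher in epithelial-like cells (7.67%) and 5 lower in VLMC (1.93%). Without the filter 5 were higher in vascular endothelia (1.19%). Clustering without the members left no vascular endothelia or VLMC. In that fit 17 were lower in pituicytes (4.19%), 1 in macrophage/microglia (2.90%) and 10 in T-cell like cells (5.48%). With the 4 largest types these counts were 15 (3.17%), 1 (1.78%) and 9 (4.12%). With the pool as a replicate block, 21 members were lower in pituicytes than in macrophage/microglia (13.6%) and 16 lower than in IL cells (6.50%), and 3 rather than 4 were lower in pituicytes against the mean of the other types (0.820%). The value of *Nr4a2* in pituicytes ranged from -1.54 without replicate 1 to 1.25, a reversal, without replicate 2. The cause was not tested. Thinning left 1448 genes tested, and the mitochondrial limit of 10% left 2361. That limit also left only 49 of 196 pituicytes and 76 of 148 IL cells, against 81 of 95 macrophage/microglia. The sums held 8491 to 281271 UMIs, and 3 counts are 127 CPM in VLMC but 5.65 CPM in IL cells.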
